A study of Mus musculus with 6 samples.

Results

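The Smad family, the transcription factors that carry signals of transforming growth factor beta (TGF-beta), activin and bone morphogenetic proteins (BMP) to the nucleus, was followed in the postnatal mouse cerebellum. Its 8 mouse members (Smad1, Smad2, Smad3, Smad4, Smad5, Smad6, Smad7 and Smad9) were taken by gene symbol from a table of 40568 genes, and each symbol occurred once. All 8 passed the filter on low counts that left 15457 genes for testing. The libraries were made from total RNA of the cerebellum of C57BL/6 mice aged 6 days. Of the 6 libraries 3 were labelled wild type and 3 SnoN cKO, a conditional knockout of SnoN, the protein encoded by Skil. The sources used here name neither the promoter that drove the deletion, nor the cells in which it took place, nor the alleles that wild type animals carried. The question of the comparison was whether transcripts of the Smads, a family with members that SnoN binds, differ when SnoN is deleted.

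Ligands of the family assemble type I and type II receptor kinases at the cell surface. TGF-beta and activin receptors phosphorylate the receptor-regulated Smads Smad2 and Smad3, whereas BMP receptors phosphorylate Smad1, Smad5 and Smad9. Phosphorylated receptor-regulated Smads join the common partner Smad4 and enter the nucleus, where SnoN and its relative Ski can bind the complex and repress its targets. Smad6 and Smad7 are the inhibitory members, made in response to the signal and acting back on receptors and on other Smads. In the young cerebellum BMP signals act against the Sonic hedgehog-driven division of granule neuron precursors. Much of the regulation of Smads is by phosphorylation and degradation of the protein, which an RNA measurement does not see.

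Skil, the targeted gene, was at 89.5, 87.5 and 88.9 CPM in wild type 1, 2 and 3, against 76.0, 74.7 and 77.5 CPM in SnoN cKO 1, 2 and 3. CPM is the read count of a gene in a library scaled to 1000000 reads on tested genes, with TMM factors that adjust the totals for differences in composition. All SnoN cKO libraries were below all wild type libraries, by 0.22 on the log2 scale (SE 0.04, unadjusted p = 0.000379 and adjusted p = 0.637 in edgeR's quasi-likelihood test), so most Skil reads remained in the dissected tissue. Zic1, which marks the granule lineage of the cerebellum, was between 1404 and 1577 CPM in all 6 libraries. Total counts lay between 12605870 and 17757711 per library, and between 6848 and 9402 of these fell on Smads. The sex labels of 2 libraries went against their reads: SnoN cKO 1, labelled female, had 35 Xist and 1146 Ddx3y reads, and SnoN cKO 2, labelled male, had 37467 and 0. Gm42418, which overlaps ribosomal RNA sequence, took 3.75% of the counts of SnoN cKO 3, 0.692% in wild type 2 and at most 0.066% in the others. Choroid plexus transcripts were nearly missing from SnoN cKO 2, where 10 marker genes summed to 49.9 CPM against at least 1815 CPM elsewhere.

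Smad4, the common Smad, was the most abundant family member per length of transcript. Dividing CPM by the exon length of each gene in GENCODE M21 gave 36.5 ± 2.49 CPM per kb for Smad4 in wild type (SD, n = 3), which placed it above 92.6% of the 15208 tested genes with a length. Smad5 followed at 24.3 ± 0.648 CPM per kb, then Smad3 at 11.9 ± 0.958, Smad1 at 10.9 ± 0.661 and Smad2 at 6.67 ± 0.382 CPM per kb. The inhibitory Smad7 stood at 4.66 ± 0.248 CPM per kb, the BMP-regulated Smad9 at 2.78 ± 0.310 and the inhibitory Smad6 at 1.67 ± 0.0985, higher than 21.4% of the genes. The order was the same in all 6 libraries. Over the 6 libraries the ranges of neighbours in this order did not overlap, except for Smad3 (11.3 to 13.5 CPM per kb) and Smad1 (10.4 to 11.7 CPM per kb). Smad3 and Smad1 changed places when the longest annotated transcript was used as the length, an alternative chosen after seeing the data that gave Smad1 18.1 and Smad3 13.0 CPM per kb in wild type. These lengths come from another genome build than mm9, which the submitters name for the counts. The transcripts used by the cerebellum were not measured.

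**Figure D1:**
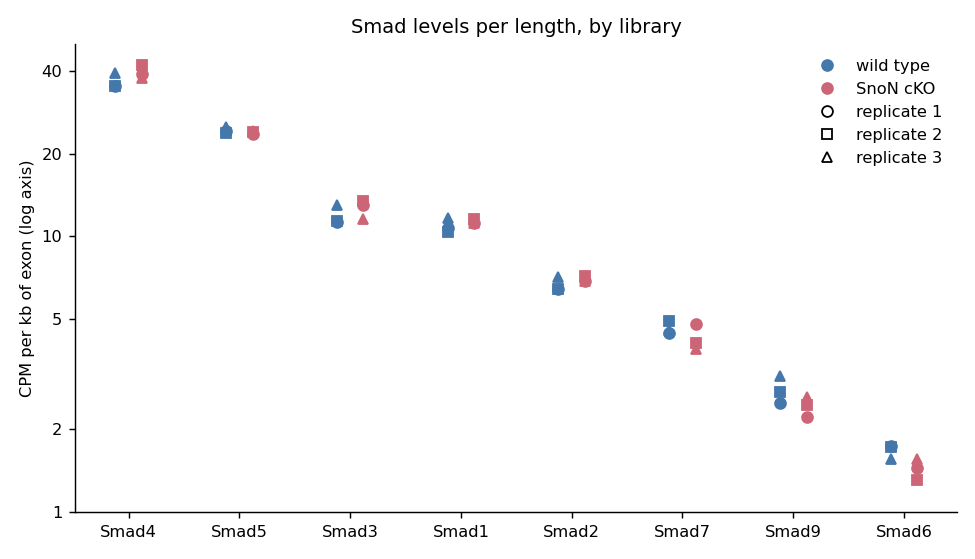
Level of each Smad in each library, as CPM per kb of exon on a log axis, with genes in descending order, colours for genotype and symbols for replicate number. Smad4 lies above Smad5 in all 6 libraries, and Smad6 is the lowest, between 1.31 and 1.73 CPM per kb.

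Among the TGF-beta and activin Smads, Smad2 was at 56.6, 56.6 and 62.4 CPM in wild type, against 60.3, 63.1 and 60.8 CPM in SnoN cKO. The wild type range was wide enough to take in 2 of the SnoN cKO values, and wild type 1 and 2 were the lowest libraries. The log2 fold change of SnoN cKO over wild type was 0.07 (SE 0.05, 95% interval -0.05 to 0.19). Smad3, the member that binds DNA directly in this branch, was at 62.8, 63.2 and 72.2 CPM in wild type, against 72.4, 74.7 and 64.2 CPM in SnoN cKO. Each genotype held libraries of both a higher and a lower level, with wild type 3, SnoN cKO 1 and SnoN cKO 2 high and the other 3 low. The log2 fold change of Smad3 was 0.09 (SE 0.07, 95% interval -0.07 to 0.25).

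Among the BMP Smads, Smad5 varied least of the whole family. It was at 179, 176 and 186 CPM in wild type, against 175, 178 and 180 CPM in SnoN cKO, with all SnoN cKO values inside or just under the wild type range. Its coefficient of variation over the 6 libraries was 2.09%, against 1.995% from counting alone, and its log2 fold change was -0.02 (SE 0.04, 95% interval -0.11 to 0.07). In percent, that interval runs from -7.35 to 4.79. Smad1, its close relative, was at 67.5, 64.8 and 73.0 CPM in wild type, against 69.9, 72.7 and 70.4 CPM in SnoN cKO, where all values lay inside the wild type range. The log2 fold change of Smad1 was 0.05 (SE 0.05). Smad9, the third BMP Smad, was at 13.4, 14.7 and 16.7 CPM in wild type, against 11.9, 13.1 and 14.1 CPM in SnoN cKO. Groups overlapped for Smad9 too, although 2 SnoN cKO libraries were below all wild type ones, and its log2 fold change was -0.19 (SE 0.11, 95% interval -0.44 to 0.06).

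Smad4 was at 130, 130 and 146 CPM in wild type, against 145, 156 and 140 CPM in SnoN cKO. Wild type 1 and 2 were the lowest, while wild type 3 was above 2 of the SnoN cKO libraries. With a log2 fold change of 0.11 (SE 0.06, 95% interval -0.02 to 0.25), Smad4 had the smallest p of the family, 0.0915 before and 0.662 after Benjamini-Hochberg adjustment over all genes in edgeR's quasi-likelihood test. It ranked 2128 of 15457 genes by p.

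Of the inhibitory Smads, Smad6 had the lowest counts of the family, between 59 and 85 reads per library. Its level was 5.56, 5.51 and 4.99 CPM in wild type and 4.62, 4.20 and 4.99 CPM in SnoN cKO. The genotypes did not overlap, but wild type 3 and SnoN cKO 3 differed only beyond the printed digits. The log2 fold change was -0.22 (SE 0.14, 95% interval -0.53 to 0.10), and the variation of Smad6 over the 6 libraries, 10.5%, was no larger than the 12.01% that counting alone gives. Smad7 was at 20.2, 22.3 and 20.7 CPM in wild type, against 21.8, 18.5 and 17.7 CPM in SnoN cKO. SnoN cKO 1 lay within the wild type range and the other two below it, for a log2 fold change of -0.13 (SE 0.10, 95% interval -0.35 to 0.09).

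**Figure D2:**
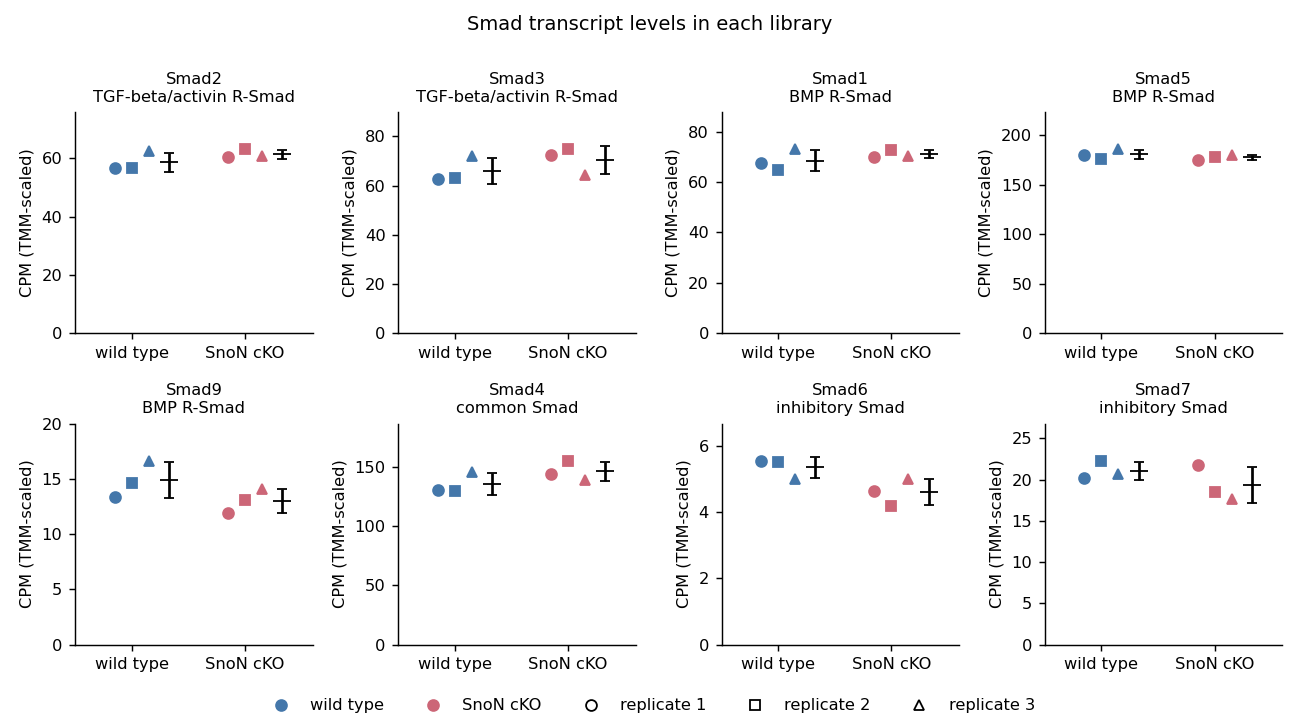
TMM-scaled CPM of each Smad (linear axes from 0), with a point per library, symbols for replicate number, and a bar for mean ± SD of 3 libraries per genotype. Groups overlap for all members but Smad6, whose nearest libraries are both at 4.99 CPM.

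Smad6 and Smad9 are shown with their promoters because both genes are known to be induced by BMP signals and are themselves parts of the response. The windows run from 250 bases before to 50 bases after the start site, are taken from RefSeq on GRCm38.p6 and are written 5′ to 3′ on the strand of the gene. Entries were at hand for 5 members (Smad1, Smad3, Smad5, Smad6 and Smad9) with 7 windows in all. Capitals mark GTCTAGAC, a palindrome of the Smad box GTCT and its reverse complement AGAC, in the Smad6 promoter (chr9:64022010-64022309, minus strand). In the Smad9 promoter (chr3:54755332-54755631, plus strand) they mark GGCGCC, a GC-rich palindrome bound by BMP-regulated Smads.
Smad6: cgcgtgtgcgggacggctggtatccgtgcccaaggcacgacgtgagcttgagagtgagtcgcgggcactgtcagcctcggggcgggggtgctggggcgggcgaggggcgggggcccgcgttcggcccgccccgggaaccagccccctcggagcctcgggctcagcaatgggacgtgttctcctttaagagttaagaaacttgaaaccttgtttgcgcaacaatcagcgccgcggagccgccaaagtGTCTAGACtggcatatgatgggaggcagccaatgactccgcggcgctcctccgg
Smad9: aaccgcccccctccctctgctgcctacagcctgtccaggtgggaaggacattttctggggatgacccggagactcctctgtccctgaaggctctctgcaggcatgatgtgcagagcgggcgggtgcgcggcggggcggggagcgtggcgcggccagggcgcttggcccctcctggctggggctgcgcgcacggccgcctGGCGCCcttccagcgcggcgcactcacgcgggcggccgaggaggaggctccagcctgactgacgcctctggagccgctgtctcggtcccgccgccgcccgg
Each motif was searched on both strands. GTCTAGAC was found in 1 of the 7 Smad windows and in 70 of 32851 promoter windows of the same length (0.213%), where GTCT or AGAC alone was in 88.0%. In the Smad6 window it begins at position -4 from the start site. GGCGCC was found in 3 Smad windows, those of Smad9 and of 2 overlapping Smad5 start sites, against 11.9% of all windows. CAGAC, a form of the Smad box with 1 more base, was found in 1 of the 7 Smad windows and in 49.6% of all windows. These matches describe the letters of the windows, and binding was not measured.

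No Smad passed the test of genotype. By edgeR's quasi-likelihood test 0 of 8 members had an adjusted p under 0.05, and over all tested genes 0% did. The adjusted p of the members lay between 0.662 and 0.897. At an unadjusted p under 0.05 there were 0 of 8 members, against 7.68% of all genes, and DESeq2 and limma-voom also called 0 members at either threshold, although DESeq2 gave no adjusted p for Smad6. Libraries of the genotypes did not overlap in 1 of 8 members, Smad6, against 13.7% of all genes in either direction and 6.73% lower in SnoN cKO, as Smad6 was. Smad1, Smad2, Smad3 and Smad4 had positive log2 fold changes and Smad5, Smad6, Smad7 and Smad9 negative ones, with a median of 0.02 against -0.002 over all genes. The 95% intervals reach from -4.72% to 19.2% for the 4 positive members and from -30.6% to 6.84% for the 4 negative ones. Smad5 had the smallest SE, 0.04, and Smad6 the largest, 0.14. In whole tissue, fewer cells of a type and less RNA per cell cannot be told apart.

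**Figure D3:**
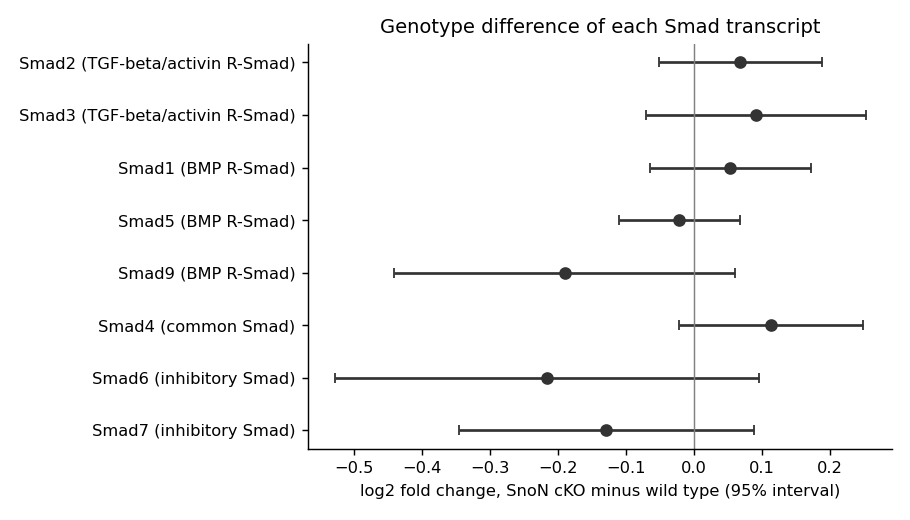
Log2 fold change of each Smad, SnoN cKO minus wild type, from edgeR, with 95% intervals as horizontal bars and a vertical line at no difference. All 8 intervals include 0, and that of Smad5, from -0.11 to 0.07, is the narrowest.

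The balance between the classes of Smads was read within each library. As a ratio of CPM per kb, BMP Smads stood to TGF-beta and activin Smads at 2.11, 2.06 and 1.97 in wild type and at 1.85, 1.84 and 2.06 in SnoN cKO. SnoN cKO 1 and 2 were below wild type, and SnoN cKO 3 was inside its range. In reads not divided by length the ratio was 2.12 ± 0.0709 in wild type and 1.99 ± 0.113 in SnoN cKO (SD, n = 3). Smad4 stood to the 5 receptor-regulated Smads together at 0.636, 0.641 and 0.658 in wild type and at 0.685, 0.714 and 0.664 in SnoN cKO. All SnoN cKO libraries were above all wild type libraries, the closest being SnoN cKO 3 and wild type 3. Counting alone gives Smad4 a variation of 2.251%. Its ratio to Smad5 in reads overlapped between genotypes, at 0.727 to 0.788 in wild type and 0.776 to 0.874 in SnoN cKO. The inhibitory Smads came to 11.2%, 12.2% and 10.2% of the receptor-regulated Smads per kb in wild type and to 11.0%, 9.21% and 9.65% in SnoN cKO, with the genotypes overlapping. These ratios were formed over members chosen with earlier results known and are given without a test.

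**Figure D4:**
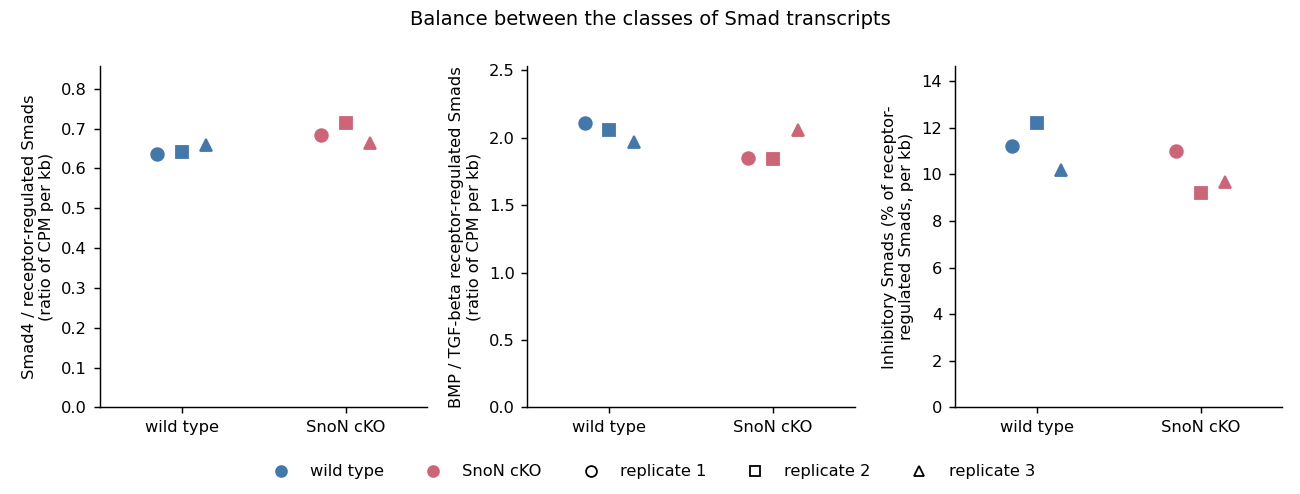
Ratios between classes of Smad transcripts in each library, on linear axes from 0, from CPM per kb: Smad4 over receptor-regulated Smads, BMP over TGF-beta and activin Smads, and inhibitory Smads in percent of receptor-regulated ones. The first ratio is 0.636 to 0.658 in wild type and 0.664 to 0.714 in SnoN cKO, and the other quantities overlap between genotypes.

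The profiles of the Smads over the 6 libraries were set against counting error. The deviation of each member from a flat profile was taken as the root mean square of log2 CPM centred on the mean of the gene. Smad3 and Smad4 deviated by 0.104 and 0.0920 on the log2 scale, where counting alone gives 0.0426 and 0.0296. Smad5 and Smad6 deviated by 0.0273 and 0.137, where counting alone gives 0.0263 and 0.158, so neither had a profile measurable beyond counting error. Smad1, Smad2, Smad3 and Smad4 were lowest in wild type 1 and 2. Smad2, Smad3 and Smad4 were highest in SnoN cKO 2, and Smad1 in wild type 3. The same measure between profiles was 0.0183 for Smad1 and Smad2 and 0.0381 for Smad3 and Smad4, both under the 0.0620 and 0.0519 that counting alone gives for these pairs. Among 10979 genes of at least 10 CPM, the gene nearest to each of the 8 members was also closer than counting error allows to resolve, so these genes are not named.

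Beside the Smads, 81 of 89 listed genes of the pathway were tested, and 0 passed by edgeR's quasi-likelihood test. At an unadjusted p under 0.05 there were 6, 3 higher and 3 lower in SnoN cKO, against 3.21% and 4.47% of all genes. The median log2 fold change of all 81 tested pathway genes was -0.023. Of these genes 35 had positive and 45 negative values, where 49.0% of all tested genes were positive. Genotypes did not overlap for 13 of the 81, against 13.7% of all genes in either direction. The lists share a few genes, such as Skil, and were written with earlier results of these data known.

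At the receptors, those of the BMP branch held both lower and higher members. Bmpr2, the type II BMP receptor, was at 243, 243 and 259 CPM in wild type, against 227, 225 and 234 CPM in SnoN cKO (log2 fold change -0.12, SE 0.04, unadjusted p = 0.0176 and adjusted p = 0.637 by edgeR). Bmpr1a, a type I BMP receptor, was at 170, 164 and 168 CPM in wild type, against 179, 185 and 177 CPM in SnoN cKO (log2 fold change 0.11, SE 0.04, unadjusted p = 0.0234 and adjusted p = 0.637 by edgeR). Genotypes did not overlap for either receptor, in opposite directions, as was so for 13.7% of all genes. Of 6 BMP receptor genes 3 had positive and 3 negative values, with a median of 0.03. Of 7 TGF-beta and activin receptor genes 6 were negative, with a median of -0.06. The activin receptor genes Acvr1b and Acvr2a had the smallest p in that list, at log2 fold changes of -0.06 and -0.05.

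Among the ligands, Tgfb3 was at 13.4, 12.1 and 12.8 CPM in wild type, against 10.6, 11.2 and 11.4 CPM in SnoN cKO, without overlap (log2 fold change -0.20, SE 0.10, adjusted p = 0.654 by edgeR). Inhba, the activin A subunit, had a log2 fold change of -0.41 (SE 0.27) at levels of at most 2.13 CPM. Of the 7 tested TGF-beta and activin ligand genes 6 were negative, with a median of -0.06. Bmp5 averaged 9.13 ± 1.79 CPM (SD, n = 3) in the wild type libraries against 7.67 ± 0.240 CPM (SD, n = 3), and Bmp7 40.3 ± 1.02 against 36.1 ± 5.52 CPM. Of 6 tested BMP ligand genes 5 were negative, with a median of -0.13, and the other 4 listed had too few counts to be tested.

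Among nuclear partners, Skil was described above, and the corepressor gene Tgif2 was at 6.34, 5.91 and 6.39 CPM in wild type, against 7.13, 7.11 and 6.80 CPM in SnoN cKO (log2 fold change 0.17, SE 0.12). Of 13 tested partners 9 were positive, with a median of 0.02. Ski, the closest relative of SnoN, had a log2 fold change of 0.01 (SE 0.05). Of 20 genes for anchors, ubiquitin ligases, phosphatases and importins that act on Smad proteins, 11 had positive and 8 negative values, with a median of 0.02, and the other one was at 0 in the digits kept. Smurf1, a ubiquitin ligase for Smads, and Ranbp3, which exports Smad2 and Smad3 from the nucleus, had log2 fold changes of -0.07 and 0.07.

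Targets of the branches were read beside the Smads. Id2, a BMP-induced dimerization partner that blocks helix-loop-helix factors, was at 165, 166 and 162 CPM in wild type, against 177, 191 and 177 CPM in SnoN cKO, without overlap (log2 fold change 0.14, SE 0.04, unadjusted p = 0.00854 and adjusted p = 0.637 by edgeR). Msx2, a homeobox target of BMP signals, was at 12.1, 13.0 and 13.8 CPM in wild type, against 14.96, 15.5 and 14.7 CPM in SnoN cKO (log2 fold change 0.22, SE 0.09, adjusted p = 0.638 by edgeR). Of 11 tested BMP target genes 8 were positive, against 49.0% of all tested genes, with a median of 0.07. Of 15 TGF-beta target genes 4 were positive and 11 negative, with a median of -0.12, Skil itself among them. In the latter list Col1a1, a collagen gene, was at 215, 170 and 202 CPM in wild type, against 158, 162 and 167 CPM in SnoN cKO (log2 fold change -0.27, SE 0.08, adjusted p = 0.637 by edgeR). Col1a1 is also a meningeal marker. All 10 meningeal fibroblast markers had negative values, and they summed to 1503 to 1780 CPM in wild type and 1103 to 1678 CPM in SnoN cKO. The part of meningeal tissue in the TGF-beta target values was not tested.

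**Figure D5:**
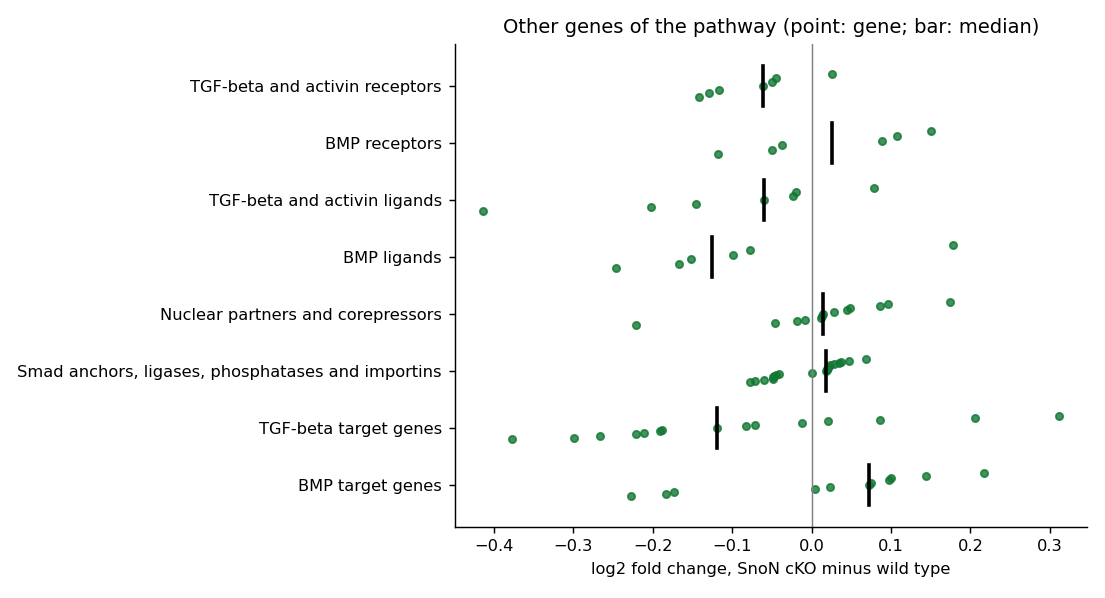
Log2 fold change, SnoN cKO minus wild type, of the tested genes of the pathway lists, with a point per gene and a bar at the median of each list. Medians lie between -0.13 for BMP ligands and 0.07 for BMP targets, and 0 genes passed the adjusted threshold.

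Markers of the cell types in the dissection also differed between libraries. Granule neuron precursor markers summed to 3730, 3770 and 4132 CPM across wild type 1, 2 and 3. For SnoN cKO 1, 2 and 3 their sums were 4020, 4365 and 3919 CPM. The log2 fold change was positive for all 10 precursor markers, against 49.0% of all tested genes, and its median over the markers was 0.09. By edgeR 1 of the 10 had an unadjusted p under 0.05, and genotypes overlapped for all of them. Granule neuron markers came to 2155, 2162 and 2627 CPM for wild type, against 2357, 2497 and 2273 CPM for SnoN cKO. Purkinje cell markers came to 2033, 2085 and 2241 CPM for wild type, against 2174, 2398 and 2133 CPM for SnoN cKO. Each of these lists was highest in wild type 3, SnoN cKO 1 and SnoN cKO 2, where Smad3 and Smad4 were also high. Other lists had another order. Endothelial sums were highest in SnoN cKO 2, SnoN cKO 3 and wild type 3, and astrocyte and Bergmann glia sums in the SnoN cKO libraries. Endothelial markers, from cells rich in Smad6 and Smad7, summed to 537 to 551 CPM in wild type and 549 to 579 CPM in SnoN cKO, with 6 of 10 positive. Brainstem and midbrain markers summed to 13.8 to 26.4 CPM and 4.47 to 14.3 CPM, with all 8 tested members negative, and all 10 choroid plexus markers were negative, summing to 1815 to 3377 CPM in wild type and 49.9 to 3490 CPM in SnoN cKO. Astrocyte and Bergmann glia markers summed to 4158 to 4213 CPM and 4339 to 4656 CPM, with 7 of 10 positive. At an unadjusted p under 0.05 there were 7 of these 10 glial markers, 5 higher and 2 lower in SnoN cKO, and genotypes did not overlap for 5, against 7.68% and 13.7% of all genes. The next highest counts at that threshold were 4 of 8 brainstem and midbrain markers, all lower, and 4 of 10 endothelial markers, 3 of them higher. Positive values were found for 9 of 10 microglia, 8 of 10 Purkinje cell, 7 of 10 granule neuron and 3 of 10 oligodendrocyte markers. Over all tested genes 49.0% were positive. No marker was at 0 in all libraries, and the part of these cell types in the Smad values was not tested.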

How the data were processed

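Total RNA of mouse cerebellum had been sequenced from a single end in 6 libraries. The raw counts per gene that the authors deposited share 1 table for all libraries. It rests on the mm9 build with featureCounts 1.4.5, Subread and STAR 2.0.4b, per the submitters' processing notes, which tie no step to a tool. The kit named in the labels records no strand. GENCODE M21 places no other gene over Smad exons except Gm27301 in Smad5 (1.35% of its exon length).

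The identifier and symbol columns are out of register. Only 97 of 40254 identifiers found in the reference names carry the symbol of their row, and all 8 Smad rows carry the identifier of another gene. Read by identifier, Xist had at most 2 reads in any library. Counts were therefore read by symbol, and no identifiers are given. Repeated symbols with equal counts were kept once (0.465% of counts).

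Genes were filtered with filterByExpr by genotype (minimum count 10), scaled by TMM and tested over all 15457 genes with the two-sided quasi-likelihood test of edgeR 4.0.16 in R 4.3.3, without covariates, with Benjamini-Hochberg adjustment at 0.05. Standard errors came from the F statistic. The common biological coefficient of variation was 9.71%. The test was tried on data simulated with this common value for every gene, so that trial cannot show how it performs on these libraries. DESeq2 1.42.0 and limma 3.58.1 were alternatives. An exact permutation of 3 against 3 cannot give p under 0.1. Each library has a code of its own in the labels, which do not say whether a code stands for an animal. P-values measure the spread between these libraries.

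No library repeated another (chi-square of counts divided by its degrees of freedom at least 2.67 for every pair). The members and all lists were chosen with earlier results of these data known. The rule for named genes took the 8 members, Skil, Ski, the 2 of each pathway list with the smallest p and the gene most like each member, which is not named because counting error exceeds its distance. The rule also took the 2 most abundant markers of each cell type list, which are given here only within the counts and sums of their list. Zic1, Xist, Ddx3y and Gm42418 serve as checks of the libraries.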

Additional observations from a re-analysis of the deposited data

How the results depend on the processing

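Each Smad value was recomputed under 17 settings: other scalings, no filter on low counts, DESeq2, limma-voom, a replicate block, sex covariates, the libraries labelled male alone, repeats kept, and each library left out. All 136 recomputed log2 fold changes kept their sign, and 0 members and 0 pathway genes passed under any of these settings, with DESeq2 giving no adjusted p for Smad6 and pathway genes counted where it gave one. Over all genes, where edgeR called 0 (1187 at an unadjusted p under 0.05), 39 passed without the filter on low counts, 6 by DESeq2 and 1 with labelled sex as a covariate; the cause was not tested.

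Leaving out 1 library moved Smad4 between 0.07 and 0.17, Smad3 between 0.05 and 0.16, Smad2 between 0.05 and 0.12, Smad1 between 0.02 and 0.10 and Smad5 between -0.03 and -0.0004. For Smad6, Smad7 and Smad9 the ranges were -0.28 to -0.15, -0.22 to -0.06 and -0.26 to -0.10. Unadjusted p under 0.05 arose for Smad4 and Smad3 in 2 such settings each (lowest 0.0178 without wild type 3 and 0.0380 without SnoN cKO 3) for Smad7 without SnoN cKO 1 (0.0465), and for Smad4 without the filter on low counts (0.0304), with adjusted p never under 0.494. Without SnoN cKO 1 or with labelled males alone Smad7 was at -0.22 and -0.25.

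With the replicate number as a block, Smad4 was at 0.11 and Smad9 at -0.19, 0 members passed and 786 genes had an unadjusted p under 0.05. Same-numbered libraries did not deviate together (correlations -0.188, -0.58 and -0.244). Deviations were taken from the mean of each genotype, so these correlations depend on each other and cannot settle whether the number pairs libraries. Some differently numbered libraries deviated together: the correlation was 0.709 for wild type 2 with SnoN cKO 3 and 0.455 for wild type 1 with SnoN cKO 2. The remaining correlations between genotypes lay between -0.399 and 0.275. No fit took such a match into account, and its cause was not tested. The covariate for sex read from Xist and the total count without Gm42418 were chosen after seeing the data. Counts of 59 to 85 reads limit Smad6.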
